A study of Mus musculus with 4 samples.

Results

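The neutrophil-attracting CXC chemokines are a family of small secreted proteins, here Cxcl1, Cxcl2, Cxcl3, Cxcl5, Ppbp and Pf4. All probe sets that the array annotation assigns to these symbols were taken, which gave 8 probe sets for 6 genes, out of 18193 genes and 45037 probe sets in all. The genes were chosen by family and by their signals on these same 4 arrays, known from an earlier look at the data, so their ratios are given as a description and no test was made on them. The study placed bone marrow-derived dendritic cells (BMDC) in 4 conditions and measured each on 1 Affymetrix mouse array, from 1 biological sample. In the live coculture, BMDC were grown with 1D8 cells, an ovarian surface epithelial line of the mouse that the labels call tumour cells, at 1 tumour cell to 5 BMDC. The irradiated coculture was set up with 1D8 cells exposed to 50 Gy. A further sample, called conditioned medium here, received 1D8 supernatant at 25% (v/v) and no tumour cells. The control BMDC had no contact with 1D8 cells or their medium. In all 4 conditions the BMDC came from male C57BL/6 mice of 6 to 8 weeks, were grown for 7 days with 500 U/ml of GM-CSF, the growth factor that turns marrow progenitors into dendritic cells and macrophages, and were sorted on the costimulatory protein CD80 before RNA extraction. How long the cells were exposed to 1D8 is not given in the sources used here. With 1 array for each condition there is no replicate error, and "higher" and "lower" describe these 4 arrays only. The median signal was 46.8 in live coculture, 45.3 in irradiated coculture and 46.6 in conditioned medium, against 38.7 in the control. No array of 1D8 cells alone was analysed here.

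These chemokines bind G protein-coupled receptors on leukocytes. Cxcl1, Cxcl2, Cxcl3, Cxcl5 and the processed form of Ppbp carry the ELR motif, the residues glutamate, leucine and arginine before the first cysteine, and attract neutrophils through the receptor Cxcr2. Pf4, platelet factor 4, lacks this motif and is known for binding heparin and other glycosaminoglycans. Macrophages, dendritic cells and epithelial cells make Cxcl1, Cxcl2 and Cxcl3 after stimulation through Toll-like receptors or the receptors of interleukin 1 and tumour necrosis factor, largely through the transcription factor NF-kappaB, and the messages are unstable. Ppbp and Pf4 are best known from platelet granules, but monocytes and macrophages express them too.

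The 6 genes lie side by side on mouse chromosome 5. In the order of the RefSeq annotation (GRCm38.p6), the protein-coding genes there are Cxcl5, Ppbp, Pf4, Cxcl3, Cxcl15, Cxcl1 and Cxcl2, so Cxcl15, a chemokine known from lung epithelium, is the 1 gene in the row outside the chosen set. The promoters of the 3 genes with the highest ratios are shown first, as 100 bases before the RefSeq transcription start on the plus strand, followed by those of Ppbp and Pf4 for comparison. Capitals mark GGGAATTTCCC, the longest run of letters that the windows of Cxcl1, Cxcl2 and Cxcl3 share, which has the form of an NF-kappaB binding sequence, and ATAAAAGG, a TATA-like stretch picked because the same 3 windows hold it. In the Ppbp window the capitals are ATAAAAGG read on the opposite strand.
Cxcl1, chr5:90891145-90891244: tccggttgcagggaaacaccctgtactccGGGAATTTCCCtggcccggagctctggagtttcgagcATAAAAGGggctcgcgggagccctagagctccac
Cxcl2, chr5:90903799-90903898: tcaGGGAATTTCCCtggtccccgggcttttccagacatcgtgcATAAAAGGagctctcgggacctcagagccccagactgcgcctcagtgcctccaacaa
Cxcl3, chr5:90786001-90786100: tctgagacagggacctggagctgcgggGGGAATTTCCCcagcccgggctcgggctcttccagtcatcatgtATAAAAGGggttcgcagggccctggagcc
Ppbp, chr5:90768418-90768517: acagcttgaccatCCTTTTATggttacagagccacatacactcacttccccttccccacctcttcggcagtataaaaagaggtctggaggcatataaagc
Pf4, chr5:90772335-90772434: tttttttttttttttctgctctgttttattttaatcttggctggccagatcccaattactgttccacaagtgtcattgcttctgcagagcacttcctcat

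The run GGGAATTTCCC stood in the windows of Cxcl1, Cxcl2 and Cxcl3 by its choice, in the same orientation in all 3, and was absent from those of Ppbp and Pf4. Only these exact letters were searched for, not other forms of the NF-kappaB binding sequence. Counted on both strands, it occurred in 14 of 32851 RefSeq promoter windows of 300 bases (250 before the start and 50 after it), a share of 0.0426%. ATAAAAGG occurred in 1.76% of these windows. The run began 71 bases before the start of Cxcl1, 97 before that of Cxcl2 and 73 before that of Cxcl3. Between its end and the TATA-like stretch lay 26 bases in Cxcl1, 29 in Cxcl2 and 33 in Cxcl3. In a global alignment of the 100 bases, Cxcl1 and Cxcl3 were identical at 64.6% of the alignment columns, Cxcl1 and Cxcl2 at 52.0%, and Cxcl2 and Cxcl3 at 48.4%. Ppbp and Pf4 were identical at 42.2%, and the 6 pairs of either of them with Cxcl1, Cxcl2 or Cxcl3 at 39.8% to 48.8%, so the alignment of Cxcl2 with Cxcl3 was no closer than some of those pairs.

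Matches to further short motifs were few. The Ppbp window held TATAAA at 30 and at 8 bases before the start, letters found in 13.6% of all windows, and an AP-1 sequence (TGANTCA, in 7.81% of windows) 204 bases before it. The TATAAA of Cxcl3, 30 bases before the start, overlaps its ATAAAAGG. On the opposite strand, 10 bases before the start, the Pf4 window held GAGGAAGT, a sequence bound by ETS factors and present in 3.20% of windows. After the start it held AGATAA, which binds factors such as Gata1 and was present in 11.2% of windows. A match describes letters and does not show that a factor was bound there.

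**Figure D1:**
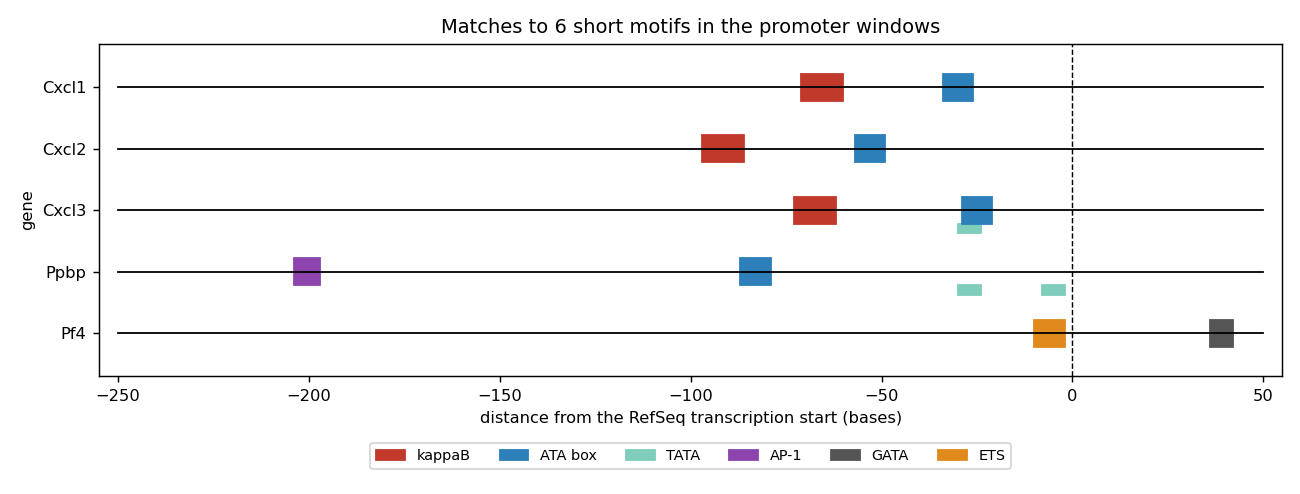
Positions of matches to 6 short motifs in the 300-base RefSeq promoter windows of 5 chemokine genes, with the distance from the transcription start in bases on the x axis and 1 row per gene. The shared run (kappaB) lies 26 to 33 bases ahead of the TATA-like stretch (ATA box) in Cxcl1, Cxcl2 and Cxcl3, and the rows of Ppbp and Pf4 hold no match to that run. Other forms of the NF-kappaB binding sequence were not searched for.

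Cxcl1, Cxcl2 and Cxcl3 were higher on all 3 arrays of BMDC exposed to 1D8 cells or their medium than on the control array. Values are MAS5 signals, the linear brightness that Affymetrix software computes for a probe set. Cxcl1, at the probe set ending in plain _at, had a signal of 1293 in live coculture, 1701 in irradiated coculture and 576 in conditioned medium, against 62.7 in the control. The control was the lowest array and lay close to the floor of 44.3, the median of all signals, under which values were not ranked. The ratios to the control were 20.6-fold in live coculture, 27.1-fold in irradiated coculture and 9.19-fold in conditioned medium.

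Cxcl2, which is made by the same cells and shares the receptor of Cxcl1, had a signal of 6714 in live coculture, 7402 in irradiated coculture and 1782 in conditioned medium, against 424 in the control. Its ratios to the control were 15.8-fold, 17.5-fold and 4.20-fold in that order. Cxcl3, a further ligand of Cxcr2, had 2934 in live coculture, 4174 in irradiated coculture and 1385 in conditioned medium, against 192 in the control, or 15.3-fold, 21.8-fold and 7.23-fold higher. For these 3 genes the arrays stood in the same order, irradiated coculture highest, then live coculture, conditioned medium and control.

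Cxcl1 was read by 3 probe sets that gave this order too, but with smaller ratios on the others. The set ending in _s_at had 873 in live coculture, 1158 in irradiated coculture and 371 in conditioned medium, against 97.3 in the control. The set ending in _x_at had 807 in live coculture, 833 in irradiated coculture and 477 in conditioned medium, against 197 in the control. The control signals of these sets were above that of the first, and the live coculture ratio ranged over the 3 sets between 4.09-fold and 20.6-fold, the irradiated coculture ratio between 4.22-fold and 27.1-fold, and the conditioned medium ratio between 2.42-fold and 9.19-fold. In Affymetrix naming, the endings _s_at and _x_at mark sets whose probes can also match other transcripts, and Cxcl1, Cxcl2 and Cxcl3 are close paralogues, so the size of the Cxcl1 ratio is uncertain while each set placed it above 2-fold on all 3 arrays. Cxcl2, Cxcl3, Cxcl5, Ppbp and Pf4 had 1 probe set each, so no second reading exists for them.

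Ppbp, the precursor of the neutrophil-activating peptide of platelets, stood in another order. Its signal was 844 in live coculture, 2304 in irradiated coculture and 1735 in conditioned medium, against 472 in the control. The irradiated coculture was again highest, but conditioned medium lay above the live coculture, which was the nearest to the control. The ratios to the control were 1.79-fold in live coculture, under the 2-fold threshold, 4.88-fold in irradiated coculture and 3.67-fold in conditioned medium.

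Pf4, the neighbour of Ppbp, had a signal of 5959 in live coculture, 7305 in irradiated coculture and 6396 in conditioned medium, against 6085.5 in the control. The 4 arrays spanned 1.23-fold from lowest to highest, and no pair of them differed 2-fold. Pf4 was brighter than at least 99.5% of all genes on each array, and Cxcl2 than 99.8% in both cocultures. Whether ratios are compressed at such high signals was not tested. Cxcl5, which epithelial cells and platelets make, had signals of 26.2 in live coculture, 28.2 in irradiated coculture and 25.9 in conditioned medium, against 5.7 in the control. All 4 values lay under the floor of 44.3, so no fold is given. The 5 other genes were above the floor on every array. Cxcl15 also stayed under the floor, at 12.2, 11.6 and 13.4 on these arrays and 5.7 in the control.

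**Figure D2:**
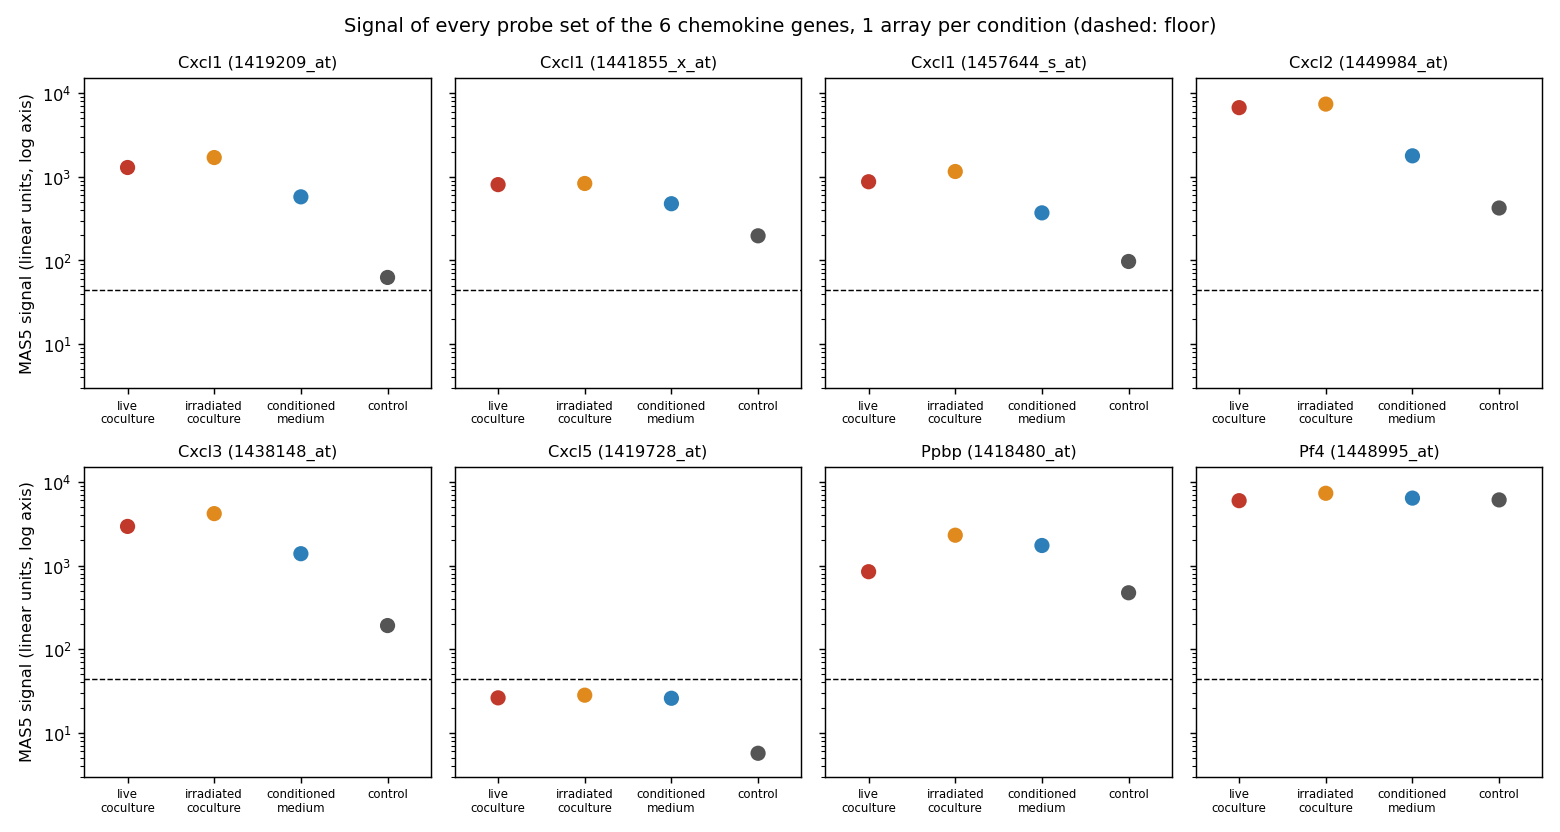
MAS5 signal (log axis) of each of the 8 probe sets, 1 point for each of the 4 arrays; the dashed line is the floor of 44.3. The 3 Cxcl1 sets, Cxcl2 and Cxcl3 fall off from the irradiated coculture over the live coculture and conditioned medium to the control, Ppbp is higher in conditioned medium (1735) than in live coculture (844), Pf4 stays between 5959 and 7305, and Cxcl5 lies under the floor.

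Counted by gene at the brightest probe set, 3 of 6 were at least 2-fold higher in live coculture than in the control (Cxcl1, Cxcl2, Cxcl3), where 3.36% of all 18193 genes were. In the irradiated coculture 4 of 6 were higher, the same 3 and Ppbp, against 3.47% of all genes, and in conditioned medium the same 4 of 6, against 2.30% of all genes. None of the 6 was 2-fold lower than the control on any of the 3 arrays, as were 2.23%, 2.25% and 1.41% of all genes. The median log2 ratio of the 6 genes was 2.39 in live coculture, 3.21 in irradiated coculture and 1.97 in conditioned medium, and that of all genes was 0.00 in each. The 3 comparisons share the control array, so a low reading there raises all of them together. On the deposited scale 612 genes were higher and 406 lower in live coculture, a split that quantile normalization turned to 479 and 482 and median centring to 490 and 559; the same members passed 2-fold under both. For the irradiated coculture the split was 632 and 409, against 530 and 468 and then 558 and 504, and for conditioned medium 419 and 256, against 284 and 339 and then 300 and 408. Between irradiated and live coculture it was 55 and 67, against 59 and 51 and then 66 and 44. Among the 18193 log2 ratios, Cxcl1 ranked 2nd from the highest in live coculture, 3rd in irradiated coculture and 2nd in conditioned medium. Cxcl2 ranked 6th, 8th and 16th and Cxcl3 8th, 5th and 3rd in the same order, while Ppbp ranked 895th, 80th and 31st.

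**Figure D3:**
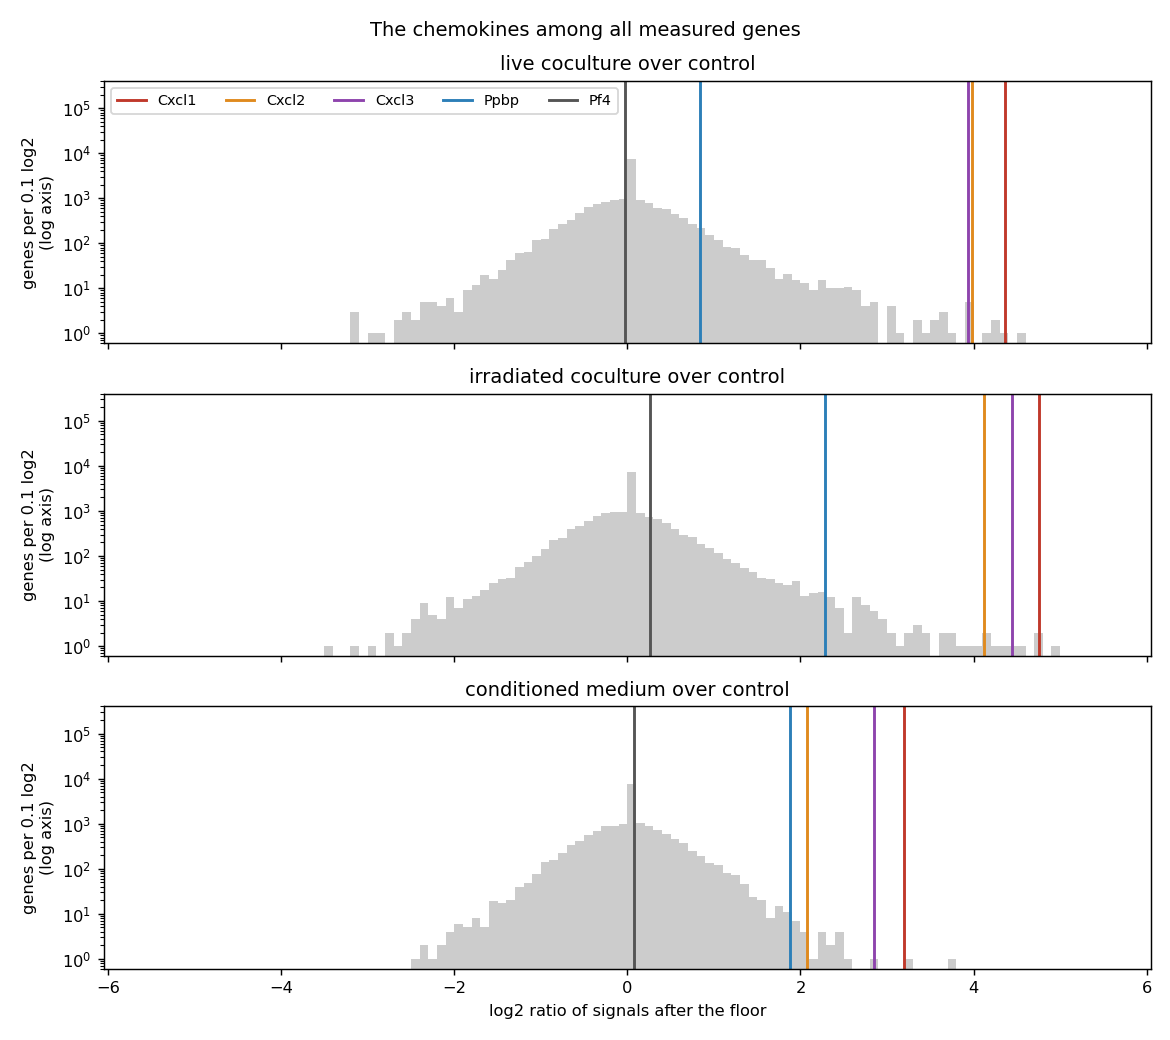
Histograms of the log2 ratio to the control over 18193 genes (bins of 0.1, log axis), for live coculture, irradiated coculture and conditioned medium, with vertical lines at 5 chemokine genes. Cxcl1, Cxcl2 and Cxcl3 lie at the right end of all 3 panels, Pf4 lies near 0, and Ppbp lies at 0.84 in live coculture, 2.29 in irradiated coculture and 1.88 in conditioned medium.

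The live coculture and conditioned medium differ in whether tumour cells were present. They also differ in how tumour products were supplied, by 1 tumour cell to 5 BMDC or as supernatant at 25% (v/v). The coculture array can carry RNA of 1D8 cells as well. These differences cannot be told apart here, and the same holds for the irradiated coculture against conditioned medium. Cxcl1, Cxcl2 and Cxcl3 were higher with live tumour cells than with their medium, by 2.24-fold, 3.77-fold and 2.12-fold (3 of 6 genes, where 1.75% of all genes were at least 2-fold higher). Ppbp went the opposite way, with 844 in live coculture against 1735 in conditioned medium, a log2 ratio of -1.04 (1 of 6 genes, where 1.14% of all genes were at least 2-fold lower). Pf4 differed little, with a log2 ratio of -0.10. Of the values just past the threshold, the nearest were those of Ppbp (2.06-fold), Cxcl3 (2.12-fold) and Cxcl1 (2.24-fold) in this comparison. The nearest below it were Ppbp in live coculture against the control (1.79-fold) and Cxcl1 at its _x_at probe set, 1.75-fold higher in irradiated coculture than in conditioned medium and 1.69-fold higher in live coculture than in conditioned medium. By that probe set Cxcl1 was therefore not 2-fold apart between either coculture and conditioned medium.

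The irradiated coculture exceeded conditioned medium by 2.95-fold for Cxcl1, 4.15-fold for Cxcl2 and 3.01-fold for Cxcl3 (3 of 6 genes, where 1.95% of all genes were at least 2-fold higher and 1.24% lower). Ppbp was 1.33-fold higher there and Pf4 1.14-fold higher, both under the threshold. Cxcl2 had the largest ratio of the 6 genes between each coculture and conditioned medium at the brightest probe sets, whereas Cxcl1 had the largest ratio of every treated array to the control. That order among the genes depended on the Cxcl1 probe set, since with the mean over its sets the log2 ratio of Cxcl1 to the control was 3.19 in live coculture, under the 3.99 of Cxcl2.

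Between the irradiated and the live coculture the 3 close paralogues were near each other. Cxcl1 was 1.32-fold higher in irradiated coculture than in live coculture, Cxcl2 1.10-fold and Cxcl3 1.42-fold, and Pf4 was 1.23-fold higher. Ppbp had 2304 in irradiated coculture against 844 in live coculture, 2.73-fold higher, and was the 1 of 6 genes past the threshold, where 0.302% of all genes were at least 2-fold higher and 0.368% lower. Its log2 ratio of 1.45 ranked 7th from the highest of 18193. For scale, over the 9847 genes that exceeded the floor on each array this log2 ratio had an SD of 0.30. This is a spread between genes, not a replicate error.

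**Figure D4:**
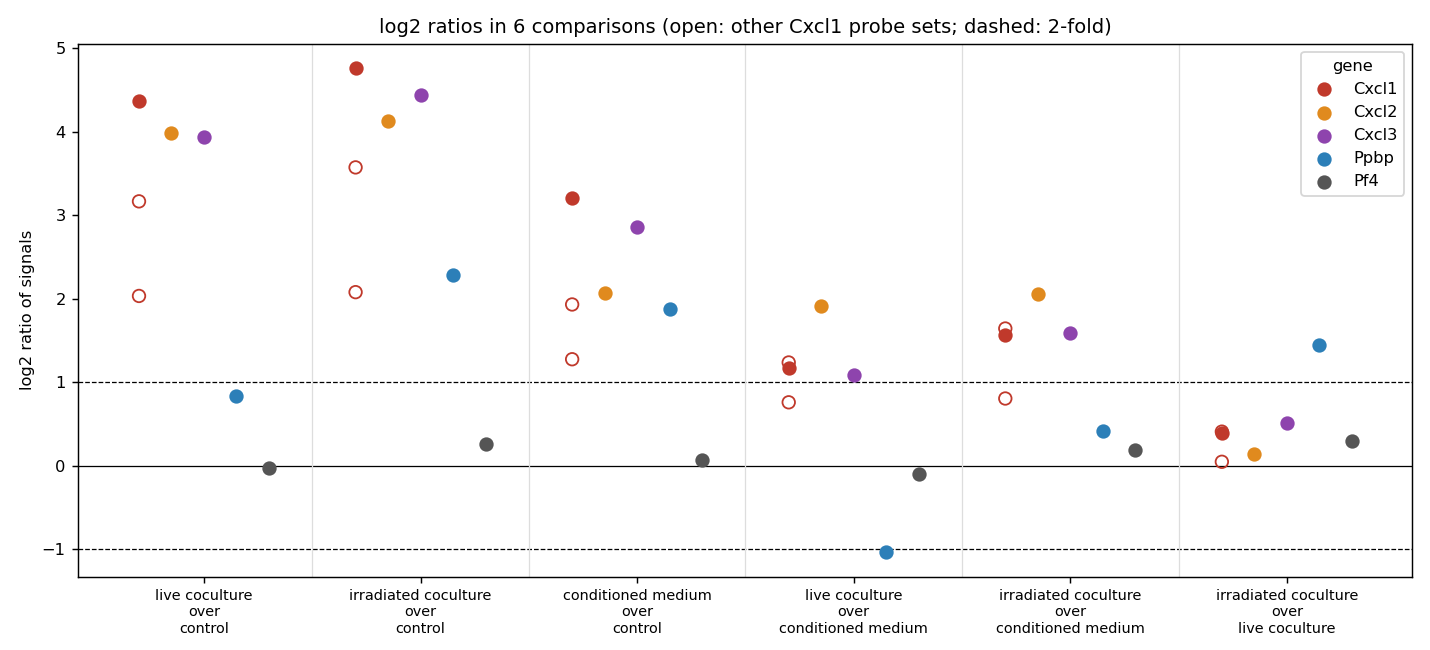
log2 ratios of 5 chemokine genes in 6 comparisons, with filled points for the brightest probe set, open points for the 2 other Cxcl1 probe sets and dashed lines at 2-fold. Ppbp (blue) lies below 0 at -1.04 for live coculture over conditioned medium and above the other genes at 1.45 for irradiated over live coculture; Pf4 (grey) stays between -0.10 and 0.29.

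Genes whose profile over the 4 arrays was nearest to that of Cxcl1 were sought by the root mean square difference of log2 signals, each gene taken relative to its own mean. Cxcl1 was taken at its plain _at probe set, which gave the largest ratios to the control of its 3 sets. The order of genes was not computed for the other sets and may differ there. By this set Cxcl3 was the nearest of all genes, at 0.16, and Cxcl2 came at 0.41. Between them lay Arg1, the enzyme that splits arginine, at 0.35. The next were the cytokine gene Il1b (0.44), Ptgs2, the inducible cyclooxygenase (0.50), Bnip3 of mitophagy (0.57), Ankrd37 (0.64), the prolyl hydroxylase gene Egln3 (0.64), Klra2 of the killer lectin-like receptors (0.69) and Il6 (0.72). Ppbp was at 1.31, with 246 genes nearer, Pf4 at 1.82 and Cxcl5 at 1.87. A likeness over 4 points is a description of these arrays.

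The receptor of the ELR chemokines among these genes was not readable in these samples. Cxcr2 had signals of 11.7 in live coculture, 8.1 in irradiated coculture and 17.9 in conditioned medium, against 7.7 in the control, all under the floor, and Cxcr1 was not analysed here. Ackr1, which binds many inflammatory chemokines without signalling, lay between 99.4 and 113.8 on all 4 arrays. Of 13 measured receptors and binding proteins of CXC chemokines, 4 were at least 2-fold higher and 1 lower in live coculture, 4 higher and 1 lower in irradiated coculture and 1 higher in conditioned medium, with median log2 ratios of 0.26, 0.12 and 0.00. Itgam, an integrin subunit of myeloid cells, had 2846 in live coculture, 3675 in irradiated coculture and 2741 in conditioned medium, against 1038 in the control. Ackr3, a scavenging receptor of Cxcl12, had 325 in live coculture and 658 in irradiated coculture, but was under the floor in conditioned medium (10.3) and in the control (12.6). Cxcr4, the signalling receptor of Cxcl12, was lower in both cocultures, with 598 in live coculture and 489 in irradiated coculture against 1801 in the control.

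Of 11 other CXC, CX3C and XC chemokines, 1 was at least 2-fold higher in live coculture, 2 in irradiated coculture and 1 in conditioned medium, with none lower and a median of 0.00 in each. Cxcl14, a chemokine of epithelia, had 125 in live coculture, 172 in irradiated coculture and 90.7 in conditioned medium, against 30.2 in the control. Its other probe set had 141 in live coculture and 153.5 in irradiated coculture but was under the floor in conditioned medium and in the control, so the call in conditioned medium, the only 1 in this list, was lost there. The interferon-induced ligands Cxcl9 and Cxcl11 were under the floor on all 4 arrays, and Cxcl10 lay between 30.0 and 54.7.

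Of 11 measured cytokines that induce the neutrophil chemokines or act with them, 5 were at least 2-fold higher in live coculture, 6 in irradiated coculture and 3 in conditioned medium, with none lower and medians of 0.89, 1.25 and 0.22. Il1b had 1990 in live coculture, 2349 in irradiated coculture and 875 in conditioned medium, against 185 in the control, the same order of arrays as Cxcl1. Il1a, the other agonist of the interleukin 1 receptor, had 870.1 in live coculture, 448 in irradiated coculture and 187 in conditioned medium, against 70.6 in the control, with the live coculture highest. Osm, oncostatin M, was 5.43-fold higher in live coculture and 4.47-fold higher in irradiated coculture, and 1.16-fold higher in conditioned medium. Tnf was 1.71-fold higher in live coculture, 1.32-fold in irradiated coculture and 1.32-fold in conditioned medium. Csf3, the neutrophil growth factor, and Csf2, which encodes GM-CSF, were under the floor on all 4 arrays.

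Of 16 measured receptors, adaptors and kinases upstream of these chemokines, 3 were at least 2-fold higher and 1 lower in live coculture, 4 higher and 1 lower in irradiated coculture and 1 higher in conditioned medium, with medians of 0.00, 0.06 and 0.09. Tlr4, the receptor of lipopolysaccharide, had 947 in live coculture, 980.4 in irradiated coculture and 614 in conditioned medium, against 422 in the control. Its ratio in live coculture was 2.25-fold at this probe set and 1.81-fold and 3.42-fold at the other sets above the floor. Tlr3, named in the title of the series, was 1.46-fold higher in irradiated coculture and within 1.2-fold of the control on the other arrays.

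Of 13 NF-kappaB subunits and inhibitors, 2 were higher and 1 lower in each coculture and 1 was higher in conditioned medium, with medians of -0.17, -0.09 and -0.09. Nfkbiz, an atypical inhibitor protein that acts with NF-kappaB in the nucleus, had 919.9 in live coculture, 991 in irradiated coculture and 381 in conditioned medium, against 155 in the control at its brightest probe set. Another Nfkbiz set gave 2.29, 2.14 and 1.29 on the log2 scale in that order, while a further set gave -0.39, 0.32 and 1.53, so its sets disagreed for the cocultures. Nfkbia, the inhibitor that NF-kappaB itself induces, was 1.70-fold higher in live coculture, 2.07-fold in irradiated coculture and 1.23-fold in conditioned medium at its brightest probe set. Over its 5 sets the Nfkbia ratio lay between 1.59-fold and 3.30-fold in live coculture, between 1.51-fold and 3.83-fold in irradiated coculture, and all 5 stayed under 2-fold in conditioned medium, so whether it passed 2-fold in the cocultures depended on the set. Relb was lower, with 56.9 in live coculture, 27.7 in irradiated coculture and 77.6 in conditioned medium, against 144 in the control. Outside the chosen set, 6 measured genes had GGGAATTTCCC in their promoter window. Of these 6, none was at least 2-fold higher or lower than the control on any of the 3 arrays, and their median was 0.00 in each. Among all genes 3.36% were higher and 2.23% lower in live coculture, 3.47% and 2.25% in irradiated coculture and 2.30% and 1.41% in conditioned medium. A gene under the floor on both arrays has a ratio of 0 by that setting. How many of the 6 lay above the floor was not counted, so these values say nothing about the run.

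Among 12 regulators of message stability, 2 were higher in each coculture, none in conditioned medium and none was lower, with medians of 0.10, 0.07 and -0.05. Zfp36, tristetraprolin, which promotes decay of chemokine messages, had 3741 in live coculture, 4258 in irradiated coculture and 2413 in conditioned medium, against 2117 in the control. Zc3h12a, the nuclease Regnase-1, was 2.06-fold higher in live coculture, 1.86-fold in irradiated coculture and 1.07-fold in conditioned medium. Its other probe set gave 1.58-fold in live coculture, under the threshold, so that call rested on 1 set. Of 13 proteases and other proteins that cut or bind chemokines, 3 were higher and 3 lower in live coculture, 3 higher and 2 lower in irradiated coculture and 1 lower in conditioned medium, with medians of 0.00, 0.00 and 0.08. Mmp9, a gelatinase that trims ELR chemokines, had 280.4 in live coculture and 288.5 in irradiated coculture and was under the floor in conditioned medium and in the control. Ctsg, the neutrophil protease cathepsin G, which can process Ppbp, was under the floor in both cocultures and had 62.0 in conditioned medium, against 233 in the control.

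Markers of other cells were read beside these genes, since in a bulk sample fewer cells of a type and less RNA per cell cannot be told apart. Of 20 epithelial and mesothelial markers, 6 were at least 2-fold higher in live coculture, 7 in irradiated coculture and none in conditioned medium, with none lower, and their summed signal was 3267 in live coculture, 3839 in irradiated coculture and 1077 in conditioned medium, against 706 in the control. Krt19, a keratin, had 569.7 in live coculture and 767 in irradiated coculture and was under the floor in conditioned medium (22.2) and in the control (8.6). The part of 1D8 RNA in the coculture values of Cxcl1, Cxcl2 and Cxcl3 was not tested. In conditioned medium, where none of the 20 markers was 2-fold apart from the control, Cxcl1, Cxcl2 and Cxcl3 were 9.19-fold, 4.20-fold and 7.23-fold higher than the control.

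Beside Ppbp and Pf4, 18 megakaryocyte and platelet markers were read. Thbs1, thrombospondin 1, which macrophages and stromal cells also express, had 7282 in live coculture, 8338 in irradiated coculture and 4458 in conditioned medium, against 2296 in the control. Its other probe set gave larger ratios to the control, 8.40-fold in live coculture, 11.7-fold in irradiated coculture and 3.77-fold in conditioned medium. The summed signal of all 18 markers was 8667 in live coculture, 9689 in irradiated coculture and 6417 in conditioned medium, against 4466 in the control. None of the 17 others was at least 2-fold higher on any treated array, while 3 were lower in live coculture, 2 in irradiated coculture and 1 in conditioned medium. Without Thbs1 the sum was 1385 in live coculture, 1351 in irradiated coculture and 1960 in conditioned medium, against 2170 in the control. Itgb3, a platelet integrin subunit, was under the floor in both cocultures (6.7 in the live and 26.9 in the irradiated one) and had 97.6 in conditioned medium, against 177 in the control. The part of platelet RNA in the values of Ppbp and Pf4 was not tested.

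Of 14 neutrophil markers, 7 were at least 2-fold lower in live coculture, 6 in irradiated coculture and 4 in conditioned medium, and none was higher. Their summed signal was 3961 in live coculture, 4803 in irradiated coculture and 8609 in conditioned medium, against 9055 in the control. Mmp8 had the largest signal of the list on every array and so weighed most in this sum. It had 2635 in live coculture, 3102 in irradiated coculture and 6902 in conditioned medium, against 5677 in the control. The sum in conditioned medium therefore does not show the 4 markers that were lower there. The calgranulin gene S100a9 was under the floor on the 3 treated arrays and had 214 in the control. Of 17 dendritic cell markers, 15 or 16 were above the floor on each treated array and all 17 in the control. All 13 of 13 macrophage markers were above it on all 4 arrays. Of all genes 62.5% were above it in live coculture, 62.0% in irradiated coculture, 61.8% in conditioned medium and 58.8% in the control. Over the 4 arrays Itgax lay between 1388 and 2534, but Flt3 between 45.5 and 73.2 and Zbtb46 between 56.1 and 63.1, close to the floor. The summed dendritic cell markers were 15523 in live coculture, 16452 in irradiated coculture and 23365 in conditioned medium, against 26893 in the control. Of the 17, 1 was at least 2-fold higher and 6 lower in live coculture, 2 higher and 5 lower in irradiated coculture and 1 higher and 3 lower in conditioned medium. Ccl22, a chemokine of mature dendritic cells, had 229 in live coculture, 301 in irradiated coculture and 356 in conditioned medium, against 1417 in the control. Ccr7, a lymph node homing receptor, had 132 in live coculture, 117.5 in irradiated coculture and 176 in conditioned medium, against 596 in the control. Cd80, the sorting marker, had 378 in live coculture, 326 in irradiated coculture and 201 in conditioned medium, against 85.5 in the control. Summed macrophage markers were 49950 in live coculture, 57188 in irradiated coculture and 54028 in conditioned medium, against 55202 in the control. Single markers went both ways, with 2 of 13 higher and 1 lower in live coculture, 1 higher in irradiated coculture and none past 2-fold in conditioned medium. Cd14, a lipopolysaccharide coreceptor, had 5615 in live coculture, 7822.5 in irradiated coculture and 2311 in conditioned medium, against 2258 in the control. Apoe, apolipoprotein E, had 2488 in live coculture, 5251 in irradiated coculture and 6041 in conditioned medium, against 6975 in the control. Matrix and fibroblast markers were higher for 3 of 16 in live coculture, 4 of 16 in irradiated coculture and none in conditioned medium, and mast cell and basophil markers were lower for 2, 2 and 1 of 9.

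**Figure D5:**
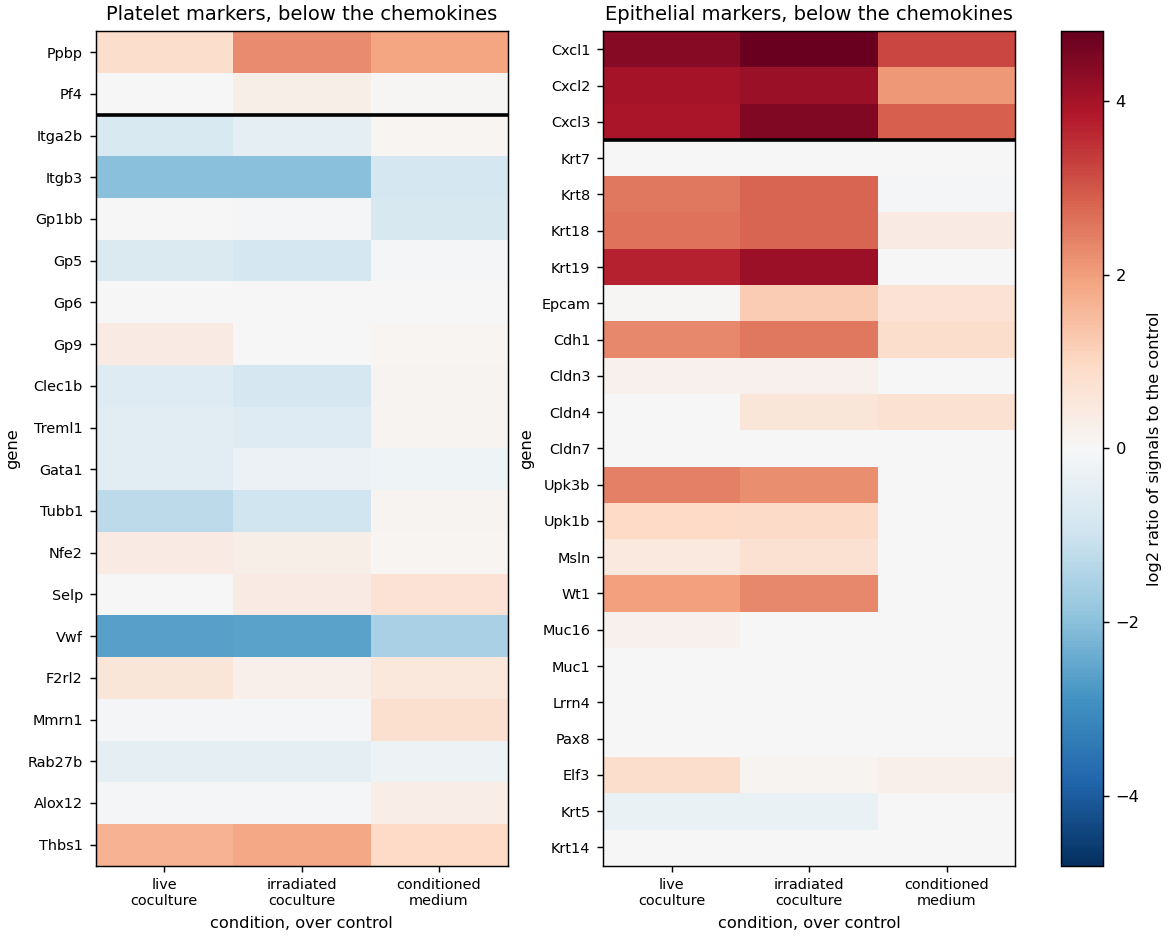
log2 ratios to the control for live coculture, irradiated coculture and conditioned medium (columns), with Ppbp and Pf4 above 18 megakaryocyte and platelet markers on the left, and Cxcl1, Cxcl2 and Cxcl3 above 20 epithelial and mesothelial markers on the right; red is higher and blue lower than the control. Of the platelet markers Thbs1 is the 1 at least 2-fold higher in the cocultures, and the keratins Krt8, Krt18 and Krt19 are red in both cocultures and pale in conditioned medium.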

How the data were processed

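RNA of 4 samples was measured on 4 arrays, 1 per condition, and groups were taken from the sample titles. The deposited values are 1 MAS5 signal per probe set, made by the authors with GCOS 1.4 and MAS5 per the submitters' processing notes; the scaling target is not given in the sources used here. On every array the mean without the lowest and highest 2% was 150.0, so no further scaling was applied. MAS5 subtracts mismatch brightness, which makes dim probe sets noisy. The 64 control probe sets were left out, and 34945 probe sets with 1 gene gave 18193 genes, each read by its brightest probe set (mean log2 signal). Signals were floored at 44.3, the 50th percentile, before log2 ratios, and at least 2-fold apart was called. With 1 array per group no test was possible, and precision is limited by there being 4 arrays. The steps were tested on simulated data. Alternatives were other floors, quantile normalization, median centring, the mean over probe sets and a 3-fold threshold. Members and lists were chosen with earlier results of these data known. Named genes are the members, up to 4 genes per list with the largest ratios to the control among those at least 2-fold apart, Cxcr2 and Ackr1, and the 8 genes nearest to Cxcl1. Tnf, Csf2, Csf3, Tlr3, Cxcl9, Cxcl10, Cxcl11 and Cxcl15 were added as family members, inducers or title genes after their values were seen. Itgax, Flt3, Zbtb46 and Mmp8 were also named outside this rule, from the marker lists. Promoter sequences are from RefSeq (GRCm38.p6) and matched 5 of 6 genes. Computation used Python 3.11.15 with pandas 2.3.3.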

Additional observations from a re-analysis of the deposited data

How the results depend on the processing

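Over 192 log2 ratios of single genes under alternatives, 187 stayed on the same side of 2-fold and none of the called ones changed sign. A large part of the 192 could not change. The mean over probe sets leaves a gene with 1 set as it was, and another floor does not alter ratios of signals above both floors. Cxcl5, under the floor on all arrays, kept its ratio under quantile normalization and median centring. The 3-fold threshold was not among the 192. With the floor at the 25th percentile (12.9) the log2 ratio of Cxcl5 to the control was 1.02 in live coculture, 1.13 in irradiated coculture and 1.01 in conditioned medium. These passed 2-fold because the treated signals lay above the lower floor. The control signal of 5.7 was raised to that floor, so the ratios are lower bounds from dim signals. By its _x_at probe set, an alternative chosen after seeing the data, the log2 ratio of Cxcl1 was 0.76 for live coculture over conditioned medium and 0.80 for irradiated coculture over conditioned medium, under 2-fold. The floor at the 75th percentile (155.6) reduced the log2 ratio of Cxcl1 to the control to 3.05 in live coculture, 3.45 in irradiated coculture and 1.89 in conditioned medium, since the control signal lay below it. With a 3-fold threshold 1 member was called between live coculture and conditioned medium (Cxcl2), against 4 at 2-fold, and 0 between the cocultures, against 1. Median centring put the median of the 6 genes for irradiated coculture over conditioned medium at 1.03, against 0.98 as deposited. It moved the median log2 ratio of all genes above the floor to -0.17 in live coculture, against -0.04 as deposited, and changed no call of a member. No paired analysis was possible because each condition had 1 array, and no replicate could be left out.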

Other observations

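Genes with a profile near that of Ppbp were looked up after its values were seen, by the measure used for Cxcl1. The nearest was Arrdc3, an arrestin domain protein gene, at a root mean square difference of 0.20 on the log2 scale, with 398 in live coculture, 884 in irradiated coculture and 549.6 in conditioned medium, against 184 in the control. The other 7 of the 8 nearest were Rab5b (0.21), Slfn1 (0.28), Ltb4r1 (0.30), Sec14l3 (0.33), Mon1b (0.36), Scel (0.37) and Fpr2 (0.38). Ltb4r1, a leukotriene B4 receptor, had 268 in live coculture, 461 in irradiated coculture and 359 in conditioned medium, against 89.8 in the control. Fpr2, a formyl peptide receptor, had 945 in live coculture, 1260 in irradiated coculture and 1134 in conditioned medium, against 328 in the control. Slfn1 of the schlafen family had 391 in live coculture, 663 in irradiated coculture and 556 in conditioned medium, against 139 in the control. These genes were picked for this profile, so their order of arrays is no finding.

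The genes that flank the chemokine row on chromosome 5 were also read after the values were seen. Mthfd2l, Epgn, Ereg and Btc, on the side of Cxcl2, and Rassf6, Afm, Afp and Alb, on the side of Cxcl5, stayed within 2-fold of the control in each of the 3 treated samples, as did Albfm1. Alb, Albfm1, Rassf6 and Ereg were under the floor throughout, so their ratios were 0 by that setting. The same held for Epgn in irradiated coculture and conditioned medium and for Mthfd2l in conditioned medium. For these comparisons, staying within 2-fold says nothing about the gene. Areg, between Ereg and Btc, was not analysed here. Btc had the largest log2 ratio of the first side in live coculture, 0.71, and Pf4, inside the row between Ppbp and Cxcl3, had -0.03 there.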
